A study of Mus musculus with 1920 samples.

Results

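The proteasome genes of single mouse microglia were followed across 10 cell groups. Members were all protein-coding genes whose symbol is Psma, Psmb, Psmc, Psmd or Psme followed by a digit, which gave 45 of the 48709 gene entries in the count table. They comprise 7 subunits of the outer alpha rings and 7 of the inner beta rings of the core particle, the 3 immunoproteasome catalytic subunits Psmb8, Psmb9 and Psmb10, and 2 tissue-restricted core subunits (Psma8, Psmb11). The regulatory particle contributes 6 ATPases, 3 other base subunits and 8 lid subunits, and 3 more genes encode chaperones of its base. The list is completed by 4 activators (Psme1 to Psme4) and by 2 genes that the symbol rule brings in. One of those is Psmc3ip, a meiotic recombination factor that is not a proteasome subunit, and the other is Psme2b, a copy of Psme2.

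Microglia are macrophages that live in brain and spinal cord. Single cells of CD1 mice aged 16 weeks were sorted into wells after staining for CD206, Ly6G, Ly6C, CD45 and CD11b, and read as Smart-seq2 libraries, which count reads without molecular identifiers. The untreated groups are corpus callosum, spinal cord, facial nucleus, cerebellum, hippocampus and cortex. Treated mice gave facial nucleus cells 3 or 14 days after facial nerve axotomy, or corpus callosum cells at the demyelination or the remyelination stage of cuprizone treatment, cuprizone being a copper chelator that kills oligodendrocytes. The labels number 4 replicates in every group, but the design text counts 3 to 4 animals for a condition and says that untreated regions share animals. P-values below would be too small if 2 replicates came from 1 animal. Of 1900 wells, 1644 passed the cell filters, and their counts were summed to 40 mouse sums of 5298853 to 19964472 counts.

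The proteasome is the cell's main machine for destroying proteins tagged with ubiquitin. The regulatory particle binds the tag, unfolds the protein and feeds it into the core particle, where Psmb5, Psmb6 and Psmb7 cut it into peptides. Under interferon signalling, Psmb8, Psmb9 and Psmb10 are built into new core particles in place of Psmb5, Psmb6 and Psmb7, and the resulting immunoproteasome yields peptides suited to presentation by major histocompatibility class I molecules. Psme1 and Psme2 form a ring-shaped activator that is also induced by interferon gamma.

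Psmb8 and Psmb9 lie in the class II region of the histocompatibility complex among the genes of the class I peptide transporter, with Tap1 between them. Psmb9 spans chr17:34181987-34187764 on the minus strand, Tap1 chr17:34187553-34197225 on the plus strand, Psmb8 chr17:34197721-34201454 on the plus strand and Tap2 chr17:34203527-34216321 on the plus strand (GRCm38). Psmb10 lies apart, at chr8:105935735-105938444 on the minus strand, and the activator genes Psme1 (chr14:55578123-55581529, plus strand) and Psme2 (chr14:55587441-55591113, minus strand) are neighbours. The promoters of Psmb8 and Psmb9 are shown to set the immunoproteasome genes beside Psmb6 and Psma6, the core subunits that passed the test at both cuprizone stages. Each is 300 bases around a RefSeq start site (GRCm38.p6), 5′ to 3′ on the gene's strand, at chr17:34197945-34198244 (plus) for Psmb8, chr17:34187281-34187580 (minus) for Psmb9, chr11:70525107-70525406 (plus) for Psmb6 and chr12:55383972-55384271 (plus) for Psma6. Capitals mark matches to the motifs named in the next paragraph.
Psmb8: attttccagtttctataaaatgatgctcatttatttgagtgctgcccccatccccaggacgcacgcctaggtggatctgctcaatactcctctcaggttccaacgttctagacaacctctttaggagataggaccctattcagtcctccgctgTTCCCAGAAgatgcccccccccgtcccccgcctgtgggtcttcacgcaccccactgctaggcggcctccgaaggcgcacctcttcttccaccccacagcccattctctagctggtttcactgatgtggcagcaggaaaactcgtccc
Psmb9: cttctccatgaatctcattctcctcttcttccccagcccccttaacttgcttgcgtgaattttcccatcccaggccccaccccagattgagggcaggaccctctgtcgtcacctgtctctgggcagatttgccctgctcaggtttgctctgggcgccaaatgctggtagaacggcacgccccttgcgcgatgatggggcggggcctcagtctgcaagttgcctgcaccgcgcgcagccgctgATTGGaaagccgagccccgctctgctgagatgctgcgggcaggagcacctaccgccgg
Psmb6: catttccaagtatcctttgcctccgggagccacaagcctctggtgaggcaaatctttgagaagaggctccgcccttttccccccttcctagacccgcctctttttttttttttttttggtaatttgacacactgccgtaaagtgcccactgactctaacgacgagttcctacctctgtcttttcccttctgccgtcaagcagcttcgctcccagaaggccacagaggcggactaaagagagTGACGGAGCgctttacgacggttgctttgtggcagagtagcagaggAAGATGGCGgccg
Psma6: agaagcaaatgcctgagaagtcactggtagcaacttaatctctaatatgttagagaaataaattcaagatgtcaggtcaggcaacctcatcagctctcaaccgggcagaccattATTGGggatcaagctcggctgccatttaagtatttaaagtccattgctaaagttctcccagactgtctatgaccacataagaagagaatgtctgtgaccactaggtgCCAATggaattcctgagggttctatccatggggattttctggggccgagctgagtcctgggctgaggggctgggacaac

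Of the 45 members, 38 matched an entry in the RefSeq promoter table, and 6 motifs were searched on both strands. The interferon gamma element TTCNNNGAA stands in capitals in Psmb8 and was also present in Psmd2, 2 of 38 members against 8.30% of all 32851 promoters of this length. The interferon-stimulated response element, searched as GAAA, any 2 bases and GAAA, was present in 4 members (Psmb3, Psmd4, Psmd9 and Psme1; 3.44% of all promoters). The antioxidant response element TGACNNNGC, in capitals in Psmb6, was present in 6 members (12.4% of all promoters). The ETS motif CCGGAAGT was present in 8 members, which is 21.1% of the 38 against 3.89% of all promoters. For each motif a member counts if any of its start sites matches, while the share of all promoters counts each promoter singly. The 2 shares are therefore not like for like. Psma6 is one of these 8, at a further RefSeq start site that is not printed and that has no other match. The printed Psma6 site is the one at the gene's annotated start, so the motifs shown for Psma6 depend on that choice. The YY1 motif AAGATGGCG, the second run of capitals in Psmb6, was present in 2 members (1.40% of all promoters), and CCAAT, in capitals in Psmb9 and Psma6, in 15 (37.4%). The letters of these motifs can overlap where they coincide, and a match is a description of letters, not of binding.

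In untreated tissue, levels were compared between genes as CPM (the counts of a gene scaled to a common library total) divided by exon length in kb, over the 24 sums of the 6 regions. The alpha-ring subunit Psma2 (108 ± 47.5 CPM per kb, SD) and the beta-ring subunits Psmb1 (107 ± 45.3) and Psmb2 (103 ± 38.2) had the highest levels, and their ranges overlapped. The core particle was uneven. Within the constitutive beta ring the mean level ran from 8.22 CPM per kb for Psmb3 to 107 for Psmb1, a 12.98-fold span, and within the alpha ring from 19.3 for Psma5 to 108 for Psma2, a 5.62-fold span. The ATPases of the regulatory particle, which unfold the substrate, spanned 24.5 (Psmc2) to 85.3 (Psmc5). Lid subunits spanned 13.9 for Psmd3 to 52.2 for Psmd6.

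The median over members was 31.5 CPM per kb for the lid, 20.5 for the other base subunits and for the activators, and 9.11 for the base chaperones. The base subunits ran from 16.8 for Psmd1 to 38.9 CPM per kb for the ubiquitin receptor Psmd4. The base chaperones ran from 4.60 for Psmd9 to 23.8 for Psmd10, and the activators from 7.54 for Psme4 to 46.2 for Psme1. The testis subunit Psma8 averaged 12.3 CPM per kb with a range of 0.196 to 39.7. The thymus subunit Psmb11 had 102 counts over 12 of the 40 sums and was the only member below the filter on low counts in the fits of regions, axotomy and cuprizone, so 44 members were tested.

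Among the cutting subunits, microglia of untreated regions carried more immunoproteasome than constitutive mRNA in 2 of the 3 pairs. Psmb8 averaged 47.4 ± 16.4 CPM per kb (14th of 45) against 9.94 ± 2.91 for Psmb5 (39th). Psmb10 averaged 40.4 ± 13.7 against 12.7 ± 5.78 for Psmb7. The third pair was the other way round, with Psmb9 at 13.4 ± 6.52 and Psmb6 at 67.7 ± 25.005. The level per kb depends on the exon length and on which transcripts are present, so these ratios describe reads and not protein.

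**Figure D1:**
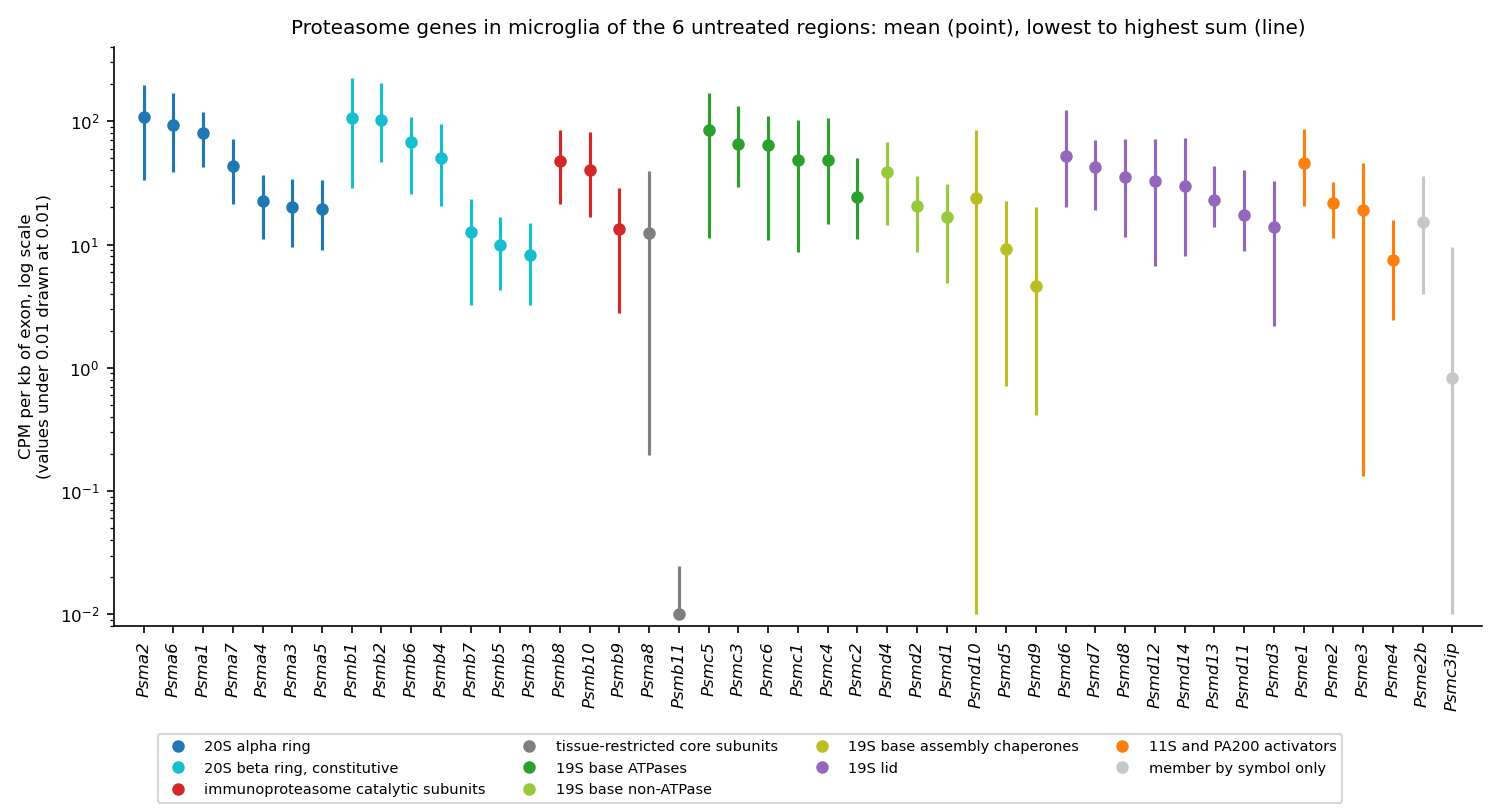
Level of each of the 45 members in untreated microglia, in CPM per kb of exon on a log axis, grouped by role. Points are means over 24 mouse sums, lines run from the lowest to the highest sum, and values under 0.01 are drawn at 0.01; Psma2, Psmb1 and Psmb2 are highest, and Psmb5, Psmb7 and Psmb9 are among the lower core subunits.

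Several of these counts share sequence with other genes. Smart-seq2 does not mark strand, so reads from Psmb9 and Tap1 cannot be told apart in the 212 exon bases they share (5.79% of Psmb9's exons), nor those of Psmb8 and the antisense gene Gm20496 in 498 bases (14.7%). Psmb7 shares 405 bases with Nek6 (11.8%). The processed pseudogene Psmb5-ps held 11.6% of the reads of Psmb5 and Psmb5-ps together, and Psmb6-ps2 held 1.05% of its pair. Of the 20 wells labelled negative, 0 had a read of Psmb8, Psmb9, Psmb5 or Psmb7, and 2 each had a read of Psmb10 and Psmb6.

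Across the 6 untreated regions no member passed the test. edgeR's quasi-likelihood test, adjusted by the Benjamini-Hochberg method over all genes and called at 0.05, called 0 of 44 members for any difference among regions, where it called 0.1% of all 22907 genes. At an unadjusted p under 0.05 it gave 1 member against 10.3% of all genes. That member was Psmb4, a constitutive beta-ring subunit (p = 0.00780, adjusted p = 0.403), whose level ran from 65.1 ± 16.6 CPM in facial nucleus to 155 ± 44.5 CPM in corpus callosum. DESeq2 called Psmb4 alone (adjusted p = 0.00492), with 0.891% of all genes called.

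Regions that shared a plate were also compared in pairs. Between cortex and hippocampus edgeR called 0 of 44 members and 0.0% of all genes, gave 0 members at an unadjusted p under 0.05 (10.3% of all genes), and DESeq2 called 0 members (3.35% of all genes). Between cerebellum and facial nucleus edgeR called 0 members (0.00437% of all genes) and 2 had an unadjusted p under 0.05 (11.3% of all genes). These were the nuclear activator Psme3, at 106 ± 45.7 CPM against 27.2 ± 30.8, and Psmc3ip, which had no counts in the 4 cerebellum sums. DESeq2 called Psmc3ip (3.44% of all genes called). Between spinal cord and corpus callosum edgeR called 0 members (0.0% of all genes), with 0 at an unadjusted p under 0.05 (6.57% of all genes), and DESeq2 called 0 (1.62%).

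Psmb8, Psmb9 and Psmb10 had adjusted p-values of 1.000, 0.952 and 0.693 for any difference among regions by edgeR. Psmb8 means ran from 113 ± 44.3 CPM in hippocampus to 169.9 ± 67.5 in spinal cord on a scale common to all 10 groups. Neighbours in that order lie within each other's spread.

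As a share of each pair's level per kb, Psmb8 took 73.3% (hippocampus, range 61.1 to 82.4) to 88.3% (cerebellum, 86.6 to 90.004) of Psmb8 plus Psmb5 in untreated regions. Psmb9 took 13.4% (corpus callosum, 5.47 to 29.6) to 24.3% (facial nucleus, 17.2 to 30.9) of Psmb9 plus Psmb6. Psmb10 took 72.5% (cortex, 66.0 to 75.3) to 81.2% (corpus callosum, 69.6 to 91.9) of Psmb10 plus Psmb7. After axotomy the Psmb9 share averaged 25.7% at day 3 (14.5 to 41.3) and 28.6% at day 14 (10.0 to 38.9). At demyelination it was 5.94% (3.14 to 8.38) and at remyelination 9.84% (3.95 to 16.3), against the 13.4% of untreated corpus callosum, and the ranges overlap. The Psmb8 share at remyelination, 90.3% to 92.7%, lay above the 69.0% to 87.7% of corpus callosum in every mouse. No test was made of these shares, and Psmb5 rests on 259 to 1106 counts per group.

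**Figure D2:**
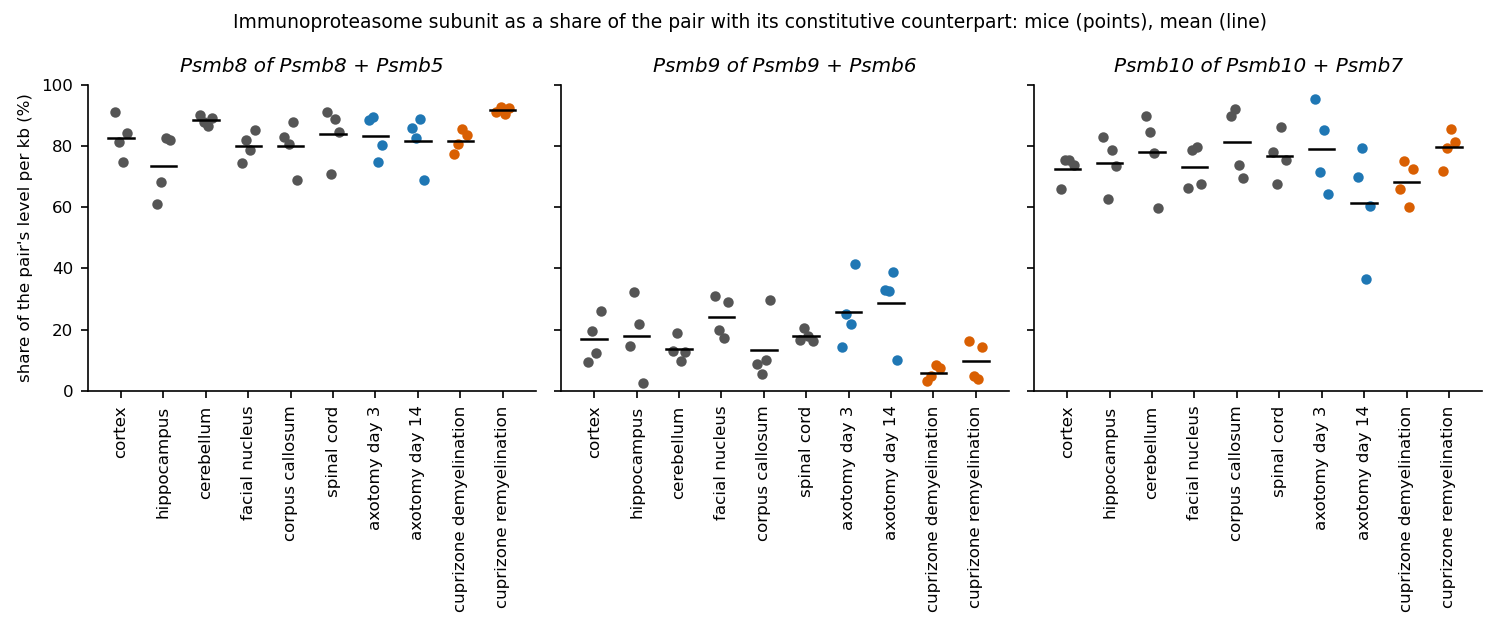
Each immunoproteasome subunit as a percentage of the summed level per kb of the pair it forms with its constitutive counterpart, in 10 groups. Points are mice and lines are group means; Psmb8 and Psmb10 take most of their pairs in every group mean, and Psmb9 takes 5.94% to 28.6%.

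At 3 days after axotomy no member passed the test, and 32 of 44 had a log2 fold change above 0. edgeR called 0 of 44 members against untreated facial nucleus, with 0.145% of all 19319 genes called, while 9 members had an unadjusted p under 0.05 (8.33% of all genes). DESeq2 called 1 member, Psmc3ip, with 1.8% of all genes called. The 9 were 5 alpha-ring subunits (Psma1, Psma2, Psma4, Psma6 and Psma7), 3 constitutive beta-ring subunits (Psmb1, Psmb2 and Psmb4) and Psmc3ip. Over the 44 members the median log2 fold change was 0.48, beside 0.04 over all genes. These values use TMM factors, edgeR's correction for library composition. With library size alone, an alternative added after seeing the data, 2 of 44 members had an unadjusted p under 0.05 against 1610 of 19319 genes, 28 members were above 0, and the medians were 0.26 for members and -0.17 for all genes.

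The alpha-ring subunit Psma2, which had the largest log2 fold change of its ring, shows the spread between mice. The lowest of that ring was Psma3 at -0.60, and Psmd10 (-0.91) and Psma8 (-1.73) were lower still. Psma2 stood at 34.9, 107, 73.6 and 107 CPM in the 4 facial nucleus sums. In the 4 day 3 sums it stood at 137, 230.2, 247 and 137 CPM. All day 3 mice lay above all untreated mice, and the log2 fold change was 1.22 ± 0.41 (SE, edgeR adjusted p = 0.434). In all, 8 members had every day 3 mouse above every untreated mouse on TMM-scaled CPM, against 3.14% of all genes, and 0 had the reverse. Psmb10, the immunoproteasome subunit among those 8, stood at 39.5, 80.4, 68.2 and 76.5 CPM untreated and 166, 94.1, 118 and 94.2 CPM at day 3 (log2 fold change 0.83 ± 0.43, adjusted p = 0.668).

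Psmc3ip stood at 1.74, 2.12, 0 and 0 CPM untreated and at 116, 6.92, 92.0 and 12.6 CPM at day 3, and 2 of the 4 day 3 mice carried most of its reads. Its log2 fold change of 5.86 ± 1.48 had an adjusted p of 0.224 by edgeR and 0.000159 by DESeq2. Without the filter on low counts edgeR gave an adjusted p of 0.00380. Psmc3ip shares 385 exon bases (21.2%) with Mlx on the other strand.

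Psmb8 was at 127 ± 44.9 CPM in facial nucleus, 158 ± 68.5 at day 3 and 131 ± 65.6 at day 14, and Psmb9 was at 66.5 ± 38.4, 70.7 ± 23.2 and 96.2 ± 48.3. Their mice overlapped in each comparison, and all 4 adjusted p-values against facial nucleus rounded to 1.000. Axotomy and untreated facial nucleus were on different plates, so plate and treatment cannot be told apart there.

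At 14 days after axotomy edgeR called 0 members and 0.0% of all genes against facial nucleus, with 3 members at an unadjusted p under 0.05 (5.64% of all genes), namely Psma4, Psmb4 and Psmc3ip. DESeq2 called 0 members (0.937% of all genes). The 2 days after axotomy were on 1 plate. Between them edgeR called 0 members (0.0259% of all genes) and DESeq2 0 (1.21%). There 3 members had an unadjusted p under 0.05 (6.6% of all genes), all of them lower at day 14, namely Psmd13, Psmb2 and Psmb10. Psmb10 was at 51.2, 83.2, 49.9 and 68.8 CPM at day 14, each below every day 3 mouse (2.36% of all genes were lower in this way), with a log2 difference of -0.90 ± 0.43 and an edgeR adjusted p of 0.751.

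During cuprizone demyelination 4 core subunits rose, 2 of the alpha ring (Psma6 and Psma7) and 2 of the constitutive beta ring (Psmb1 and Psmb6), and none fell. edgeR called 4 of 44 members higher than in untreated corpus callosum, where it called 5.16% of all 14057 genes in either direction and 3.08% higher. At an unadjusted p under 0.05 it gave 21 members (20.3% of all genes), and with library size alone 6 members against 2989 of the 14057 genes, a smaller share than that of all genes. DESeq2 called 11 members (13.8% of all genes), the 4 above and Psma4, Psma5, Psmb8, Psmd4, Psmd12, Psmd14 and Psme2. On TMM-scaled CPM, every demyelination mouse lay above every corpus callosum mouse in 20 of 44 members, against 8.74% of all genes. TMM factors raise cuprizone values against untreated ones, and this count is not given with library size alone.

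Psmb6, the constitutive counterpart of Psmb9, was at 164, 76.0, 103 and 74.6 CPM in the corpus callosum mice and at 463, 256, 267 and 367.4 CPM at demyelination. Every demyelination mouse was above every untreated mouse, with a log2 fold change of 1.69 ± 0.36 (SE, edgeR adjusted p = 0.0119). Psma7, an alpha-ring subunit, was at 146, 97.3, 168 and 127 CPM against 454, 280.2, 263 and 397 CPM, again with no overlap (1.37 ± 0.30, adjusted p = 0.0148). Psma6, also of the alpha ring, was at 81.0, 80.5, 124 and 92.9 CPM against 261, 204, 246 and 374 CPM (1.52 ± 0.35, adjusted p = 0.0192). Psmb1, a beta-ring subunit with no cutting activity, was at 53.3, 88.2, 188 and 85.1 CPM against 269, 317, 438 and 319.8 CPM, and its groups did not overlap either (1.70 ± 0.39, adjusted p = 0.0207).

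The 3 immunoproteasome subunits did not pass edgeR's test at this stage, with Psmb8 at the threshold. Psmb8 was at 120.2, 87.0, 166 and 57.2 CPM untreated and 243, 223, 304 and 220.4 CPM at demyelination, without overlap, and its adjusted p was 0.0502 (log2 fold change 1.2004 ± 0.34). DESeq2 called Psmb8 (adjusted p = 0.0491), as did edgeR with a replicate block (0.0380), with all 10 groups in the fit (0.0293), with only the 2 groups compared (0.0472) and without corpus callosum replicate 3 (0.0321). Psmb9 was at 30.7, 8.60, 22.4 and 61.3 CPM against 29.3, 24.7, 47.7 and 58.7 CPM, and Psmb10 at 114, 78.5, 90.6 and 49.4 CPM against 118, 113, 75.5 and 108 CPM. The mice of both genes overlapped, with log2 fold changes of 0.38 ± 0.75 (adjusted p = 0.847) and 0.32 ± 0.44 (adjusted p = 0.773), which were -0.22 and -0.28 with library size alone in place of TMM scaling.

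The constitutive counterparts Psmb5 and Psmb7 did not pass edgeR's test either. Psmb5 was at 7.86, 6.68, 7.45 and 8.19 CPM untreated and 22.8, 17.1, 16.6 and 13.9 CPM at demyelination, without overlap (1.22 ± 1.12, adjusted p = 0.631). These values rest on 384 and 1106 counts. Psmb7 was at 26.6, 13.8, 65.0 and 43.4 CPM against 123, 75.2, 101 and 82.9 CPM (1.36 ± 0.59, adjusted p = 0.190). The activator subunits Psme1 (75.9 ± 28.2 against 142 ± 40.2 CPM, adjusted p = 0.243) and Psme2 (32.0 ± 8.19 against 81.8 ± 12.9 CPM, adjusted p = 0.118) did not pass edgeR's test. Psme2 was called by DESeq2 (adjusted p = 0.0203) and by edgeR with all 10 groups in the fit (0.0377).

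By role, medians at demyelination were larger for the core rings and the lid than for the ATPases. With TMM scaling, all 7 alpha-ring and all 7 constitutive beta-ring subunits had a log2 fold change above 0, with medians of 1.37 and 1.22, while with library size alone Psma3 was at -0.15 and the medians were 0.78 and 0.61. The 8 lid subunits were above 0 with TMM scaling, with a median of 1.10, while Psmd11 was at -0.04 with RLE scaling and -0.39 with library size alone, where the lid median was 0.48. The lid was led by Psmd14, the lid enzyme that removes ubiquitin (1.90 ± 0.55, adjusted p = 0.0543), and Psmd12 (1.78 ± 0.53, adjusted p = 0.0585). The 3 non-ATPase base subunits had a median of 1.12. The 6 ATPases had a median of 0.51 and ran from -0.01 for Psmc1 to 0.82 for Psmc6, with 0 at an unadjusted p under 0.05. With library size alone the ATPase median was -0.08, with Psmc1, Psmc2 and Psmc5 below 0. The base chaperones had a median of -0.32, and the testis subunit Psma8 had the lowest value of all members (-3.10 ± 2.25, adjusted p = 0.509). A difference between roles was not tested.

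The values depend on how the sums are scaled. TMM factors averaged 1.34 in corpus callosum and 0.879 and 0.854 at demyelination and remyelination, which raises cuprizone values against untreated ones. With library size alone edgeR called 0 members at either stage. The median of all genes then moved from -0.33 to -0.94 at demyelination and from -0.31 to -0.94 at remyelination, and RLE scaling placed it at -0.59 and -0.48. The members' median moved with it, from 1.08 to 0.46 at demyelination and from 0.83 to 0.16 at remyelination. Among the 7029 genes above the median level, where 41 of the 44 members fall, the median under TMM was 0.27 at demyelination and 0.29 at remyelination, beside member medians of 1.08 and 0.83. All-gene calls at demyelination split 433 higher to 292 lower under TMM, 326 to 309 under RLE and 210 to 565 under library size alone. At remyelination they split 353 to 85 under TMM and 148 to 151 under library size alone.

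In CPM without any scaling factor, Psmb6 was 2.14-fold higher at demyelination, Psmb1 2.14-fold, Psma6 1.91-fold and Psma7 1.72-fold. Unscaled Psmb6 ran from 102 to 216 CPM untreated and from 222 to 398 CPM at demyelination, still without overlap. Psma6 and Psma7 did not overlap either, while Psmb1 did (70.2 to 242 against 231 to 372 CPM). At remyelination the unscaled mice of Psmb6 (139 to 396 CPM) and Psma6 (149 to 361 against 107 to 159 CPM) overlapped with untreated mice, and those of Psmb8 (242 to 362 against 78.3 to 214 CPM) did not. Psmb8 was 1.52-fold higher at demyelination and 1.97-fold higher at remyelination.

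**Figure D3:**
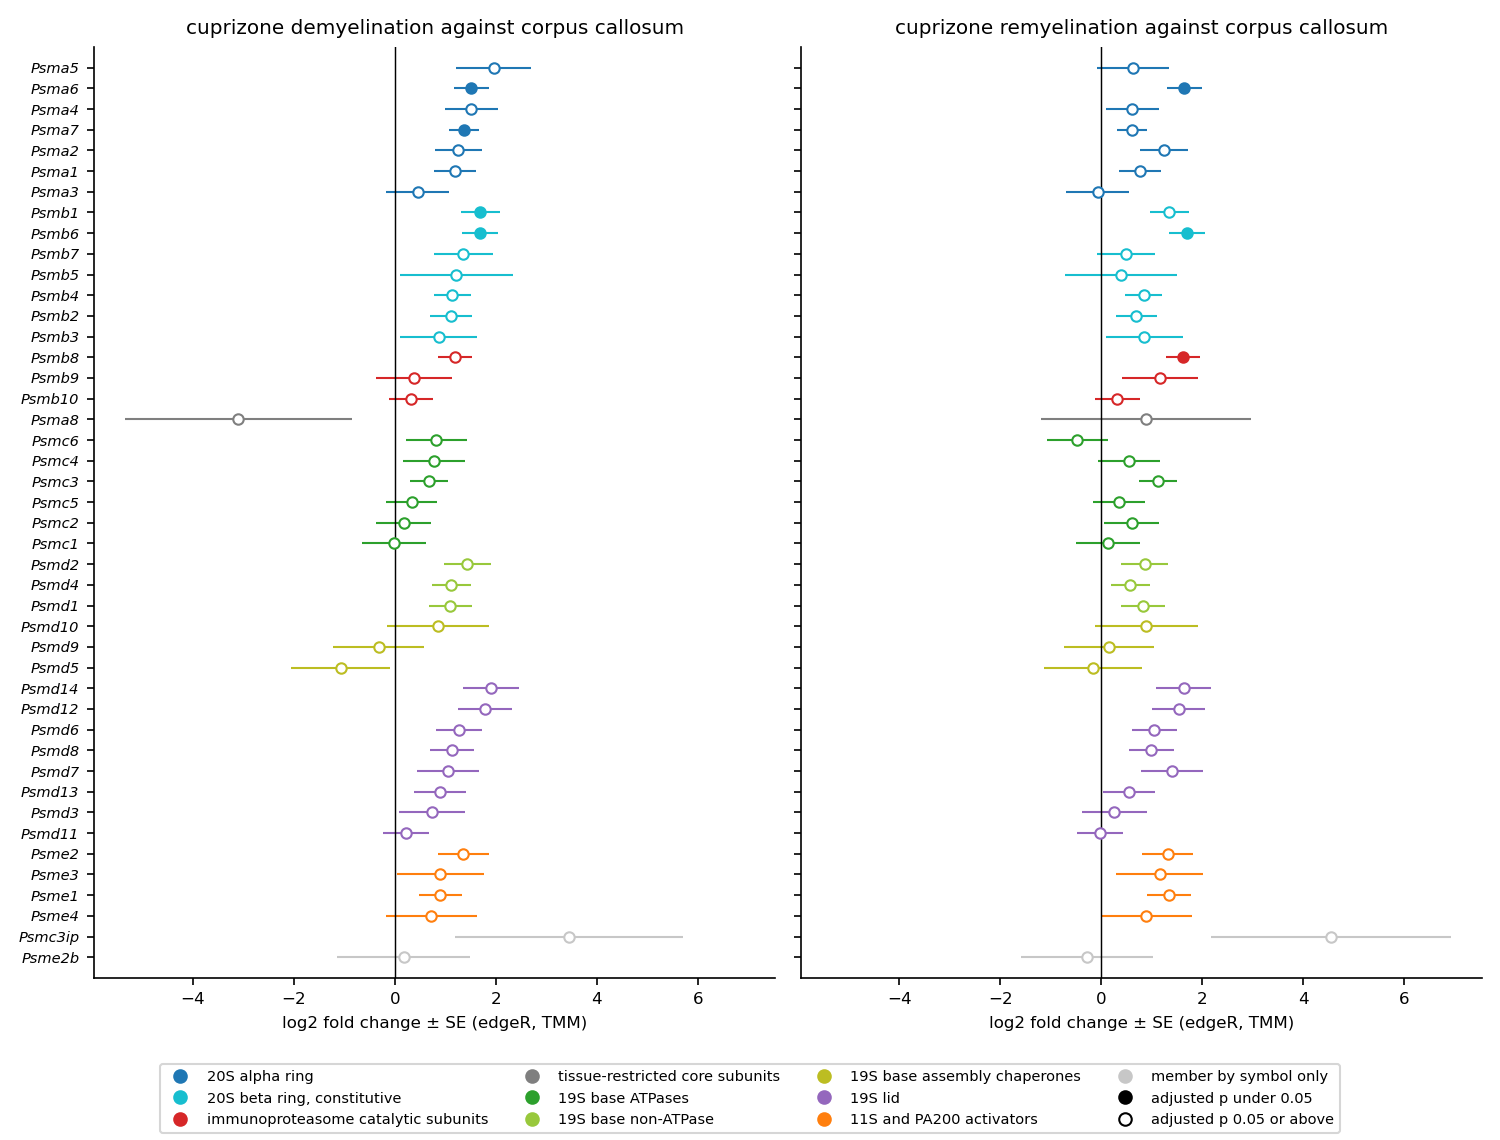
Log2 fold change of 44 members against untreated corpus callosum at demyelination (left) and remyelination (right), in TMM-scaled edgeR fits; points are estimates, bars are SE, and filled points passed an adjusted p of 0.05. Filled points are Psma6, Psma7, Psmb1 and Psmb6 at demyelination and Psma6, Psmb6 and Psmb8 at remyelination.

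At remyelination the immunoproteasome subunit Psmb8 rose, together with Psma6 and Psmb6, and none fell. edgeR called 3 of 44 members higher than in corpus callosum, where it called 3.12% of all genes in either direction and 2.51% higher. At an unadjusted p under 0.05 it gave 14 members (18.8% of all genes), and with library size alone 3 members against 2753 of the 14057 genes, a smaller share than that of all genes. DESeq2 called 4 (11.3% of all genes), adding Psme2. On TMM-scaled CPM, all remyelination mice lay above all untreated mice in 5 members (5.54% of all genes).

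Psmb8 reached 354, 281, 416 and 273 CPM at remyelination against 120.2, 87.0, 166 and 57.2 CPM untreated, so the groups did not overlap (log2 fold change 1.62 ± 0.34, edgeR adjusted p = 0.0128). Psma6 reached 359, 419, 241 and 161 CPM (1.64 ± 0.35, adjusted p = 0.0136) and Psmb6 183, 344, 396 and 429 CPM (1.69 ± 0.36, adjusted p = 0.0137). Their lowest remyelination mice, at 161 and 183 CPM, lay above the highest untreated mice, at 124 and 164 CPM.

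Psmb9 and Psmb10 did not move with Psmb8 past the test. Psmb9 was at 69.8, 33.1, 31.8 and 141 CPM, with 1 mouse far above the others (1.17 ± 0.76, adjusted p = 0.474), and Psmb10 at 58.6, 135, 84.8 and 136 CPM (0.32 ± 0.44, adjusted p = 0.786, and -0.30 with library size alone). Psme1 was at 103, 174, 301 and 187 CPM against 59.0, 104, 94.9 and 45.3 CPM (1.33 ± 0.43, adjusted p = 0.0875), and Psme2 at 76.0, 72.1, 116 and 54.8 CPM against 29.3, 35.0, 41.5 and 22.3 CPM (1.31 ± 0.50, adjusted p = 0.146). Psma7, called at demyelination, was at 194, 238, 222 and 168 CPM at remyelination (0.61 ± 0.30, adjusted p = 0.290), and its log2 fold change with library size alone was -0.03, where Psmb5 and Psmb7 were also below 0.

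**Figure D4:**
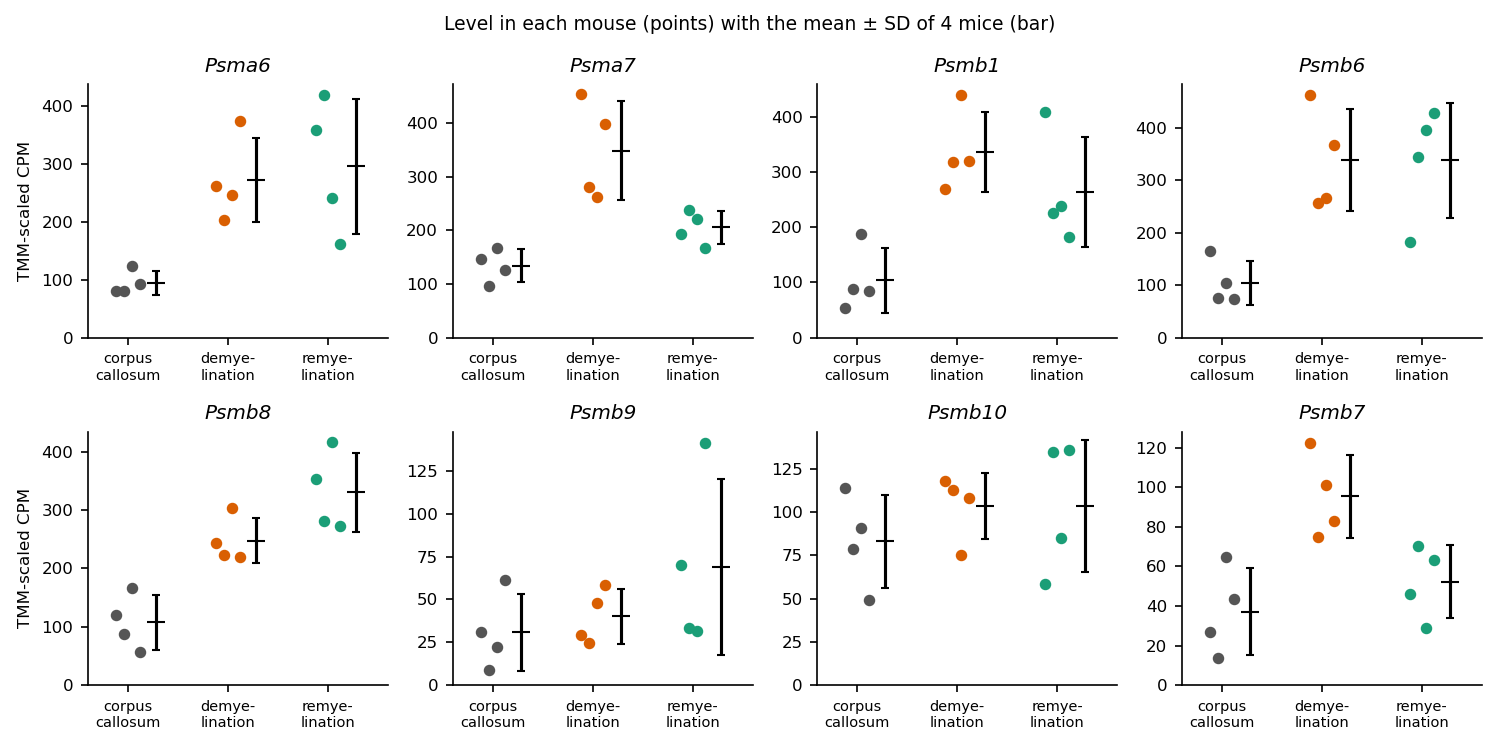
TMM-scaled CPM of 8 members in each mouse of untreated corpus callosum, demyelination and remyelination; points are mice and bars are the mean ± SD of 4 mice. Psmb6, Psma6 and Psmb8 are above every untreated mouse at both stages, while Psmb9 and Psmb10 overlap with untreated mice.

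The 2 cuprizone stages, which shared a plate, were compared directly. edgeR called 0 of 44 members between them (0.0427% of all genes), with 2 at an unadjusted p under 0.05 (14.1% of all genes), and DESeq2 called 0 (4.24%). Those 2 were Psma7 (log2 difference of remyelination minus demyelination -0.76 ± 0.30, adjusted p = 0.290) and the ATPase Psmc6. Psma7 and Psmb7 were lower in every remyelination mouse than in every demyelination mouse, and 2.63% of all genes were lower in this way. For Psmb8 the difference was 0.42 ± 0.33 (adjusted p = 0.690), so that its call at remyelination alone does not show a difference between the stages.

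How many members pass depends on single libraries. At demyelination the count of 4 became 0 without corpus callosum replicate 2 or replicate 4, and 2 without corpus callosum replicate 1 or without demyelination replicate 1 or 4. At remyelination the count of 3 became 0 without corpus callosum replicate 2 and 1 without corpus callosum replicate 4. The shares of all genes called in these fits are not given, so a lower count is not a result about the members. Over the 18 alternatives run, Psmb6 kept its call in 14 at demyelination and 12 at remyelination, Psma6 in 10 and 10, Psmb1 in 12 and Psma7 in 10 at demyelination, and Psmb8 in 12 at remyelination. The sign of these log2 fold changes was positive in all 18.

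Other properties of the libraries moved with the cuprizone groups. Cuprizone and untreated corpus callosum were on different plates, so plate and treatment cannot be told apart. Detected genes per cell had medians of 2926 in corpus callosum, 2137 at demyelination and 1517 at remyelination, where 67.9% of wells passed the filters and the median spike-in share was 18.4% against 8.50%. In summed counts, fewer cells of a type and less RNA per cell cannot be told apart.

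Markers of other cell types also differed between these groups. Summed CPM of the 12 microglia markers was 51023 to 58279 in corpus callosum and 24794 to 29691 at demyelination, with Tmem119, P2ry12, Siglech, Cx3cr1, Gpr34 and Sall1 called lower and Trem2 higher. At remyelination it was 24560.0 to 32017, with Tmem119, P2ry12, Siglech and Cx3cr1 called lower and C1qa and Trem2 higher. The 8 monocyte markers summed to 28.8 to 182 CPM in corpus callosum, 388 to 1607 at demyelination and 49.0 to 240.2 at remyelination, with Fn1 the one called at each stage and Ly6c2 at 0 in both cuprizone groups. At demyelination Fn1 was the 1 of 5 tested monocyte markers with a log2 fold change above 0 (7.77). The median of the 5 was -1.65, and Chil3 was also at 0. At remyelination 2 of the 5 were above 0, with a median of -0.39. The 8 border macrophage markers summed to 4.81 to 17.6, 8.89 to 62.3 and 174 to 255 CPM, with Ms4a7 called at remyelination and Lyve1 at 0 in both cuprizone groups. Of the markers of other types, edgeR called Stmn2 (neuron) lower at demyelination, and Mbp (oligodendrocyte) and Flt1 (endothelial) higher at remyelination. Without the cells that had reads of 2 or more monocyte or border macrophage markers, edgeR called 2 members at demyelination (Psmb6 and Psmd6) and the same 3 at remyelination. The share of all genes called there is not given. This left out 22.5% of corpus callosum cells, 21.1% of demyelination cells and 14.7% of remyelination cells. It thus took no larger share of cuprizone cells than of untreated ones. The part of these markers in the result was otherwise not tested.

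Summed unscaled CPM over whole groups of subunits shows the size of the difference without a test. The 14 constitutive core subunits summed to 1157 to 1789.8 CPM in corpus callosum, 2191 to 2834 CPM at demyelination and 1697 to 2328 CPM at remyelination, and only the demyelination mice lay wholly above the untreated ones. The 17 subunits of the regulatory particle summed to 1749 to 1974 CPM, 2161 to 2587 CPM and 1630.0 to 2451 CPM. Psmb8, Psmb9 and Psmb10 together gave 230.0 to 359 CPM in corpus callosum, 312 to 363 CPM at demyelination and 366.8 to 508 CPM at remyelination. By group mean, the sums of the core and of the regulatory particle were highest at demyelination, and that of the immunoproteasome subunits at remyelination. The regulatory particle sum at demyelination overlapped with that at remyelination and with that of untreated cortex (1886 to 2351 CPM). Within the immunoproteasome sum, the unscaled ratio of remyelination to corpus callosum was 1.97 for Psmb8, 1.45 for Psmb9 and 0.81 for Psmb10.

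**Figure D5:**
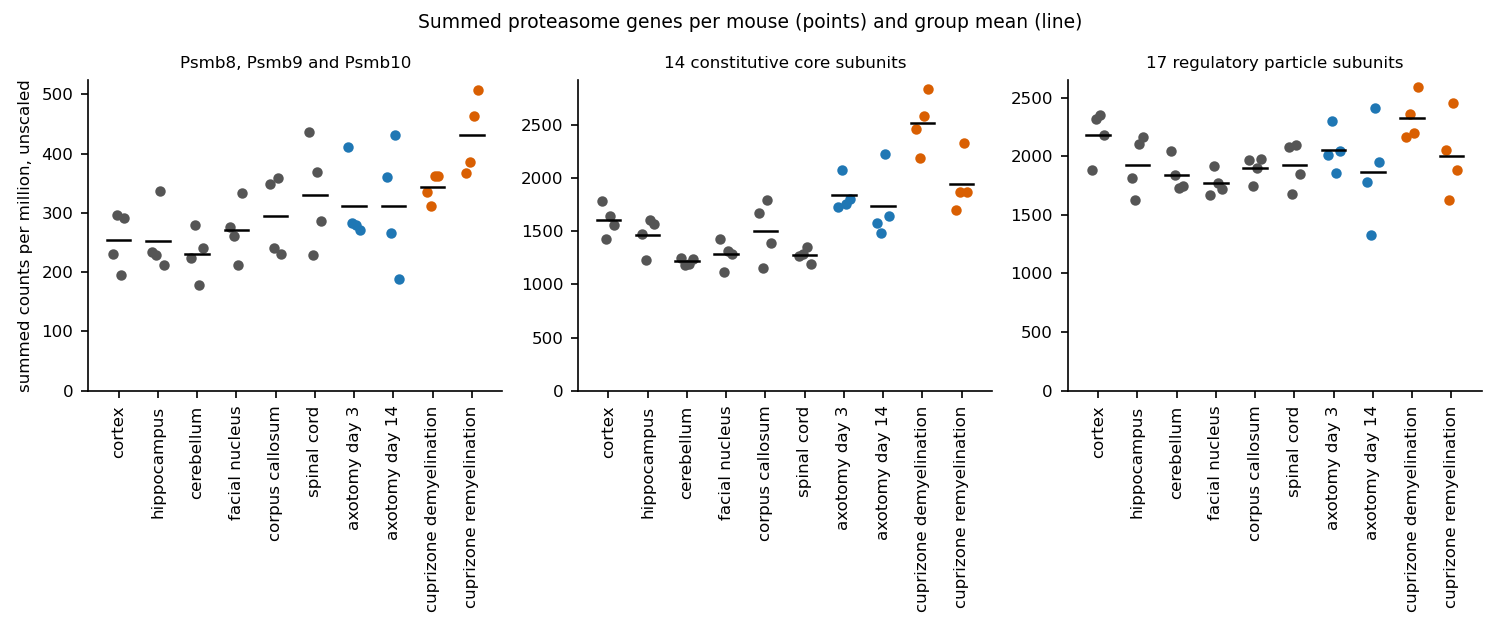
Summed CPM, without a scaling factor, of 3 sets of subunits in 10 groups; points are mice, lines are group means, and colours separate untreated, axotomy and cuprizone groups. The 14 constitutive core subunits are highest at demyelination (mean 2515 CPM) and Psmb8, Psmb9 and Psmb10 at remyelination (mean 431 CPM).

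In single cells thinned to 20000 reads, 10.3 ± 0.431 members (SD over 4 mice) were detected per cell in corpus callosum, 12.3 ± 1.31 at demyelination and 8.67 ± 1.92 at remyelination. Without thinning these were 14.03, 17.7 and 13.05. Unthinned cells differed in depth, with median gene counts of 201705 in corpus callosum, 471755 at demyelination and 383610 at remyelination. Unthinned values are therefore not like for like between these groups. Psmb6 was read in 33.3% ± 6.91 of thinned corpus callosum cells, 60.8% ± 6.13 of demyelination cells and 44.1% ± 14.4 of remyelination cells. Without thinning these shares were 46.0%, 73.7% and 54.8%. Psmb8 was read in 34.4% ± 6.29, 50.2% ± 5.15 and 38.9% ± 11.1 of thinned cells and in 42.7%, 63.2% and 50.1% without thinning. At remyelination the CPM of Psmb8 is higher while its share of cells is near that of untreated corpus callosum, and the lower genes per cell there prevent reading an order from the shares.

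The effect of demyelination was compared with that of axotomy at day 3 in one fit of the 4 groups concerned. edgeR called 0 of 44 members for a difference between the effects (1.03% of all 19148 genes), with 6 at an unadjusted p under 0.05 (21.6% of all genes), all higher under demyelination. These were Psmd12, Psmd14, Psmb6, Psma5, Psmc4 and Psmd1, with adjusted p-values of 0.109 to 0.193. With library size alone 2 members had an unadjusted p under 0.05, against 4682 of the 19148 genes. For Psmb6 the difference of log2 fold changes was 1.61 ± 0.56 (adjusted p = 0.121) and for Psmb8 0.99 ± 0.55 (adjusted p = 0.293). DESeq2 called Psma5 alone (10.9% of all genes called).

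Genes that work with the proteasome were read from 4 further lists. Their values use TMM factors, which raise cuprizone values against untreated ones here too, and values with library size alone are not given. With TMM the median log2 fold change of all genes was -0.33 at demyelination and -0.31 at remyelination. Of 17 tested assembly, inhibitor and associated factors, 2 rose at demyelination and none fell, where 3.08% of all genes were called higher. Sem1, a small lid subunit, went from 34.4 ± 3.29 to 170.4 ± 30.5 CPM (log2 fold change 2.31 ± 0.37, edgeR adjusted p = 0.00128), and Pomp, the maturation factor of the core particle, from 148 ± 14.4 to 376 ± 124 CPM (1.35 ± 0.36, adjusted p = 0.0438). Sem1 also rose at remyelination, to 147 ± 24.2 CPM (2.10 ± 0.37, adjusted p = 0.00314). It was the 1 factor called there, where 2.51% of all genes were called higher. The list's median log2 fold change was 1.03 at demyelination and 0.36 at remyelination. Of 12 genes of ubiquitin supply, the p97 segregase and the Nfe2l1 axis that controls proteasome genes, 0 passed by edgeR at either stage, with medians of 1.03 and 0.48. There 3 and 2 of the 12 had an unadjusted p under 0.05 (20.3% and 18.8% of all genes). DESeq2 called 1 at each stage (13.8% and 11.3% of all genes).

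Of 12 class I presentation genes, where 3.08% and 2.51% of all genes were called higher at the 2 stages, 5 rose at demyelination (B2m, H2-D1, H2-K1, Calr and Pdia3) and 4 at remyelination (B2m, H2-K1, H2-D1 and Pdia3), and none fell, with list medians of 0.88 and 0.95. H2-K1, a class I heavy chain, went from 202 ± 52.8 CPM in corpus callosum to 472 ± 78.8 at demyelination (1.22 ± 0.26, adjusted p = 0.0129) and 1354 ± 453 at remyelination (2.74 ± 0.28, adjusted p = 1.57e-05). B2m, the class I light chain, went from 1532 ± 253 to 4906 ± 224 CPM (1.68 ± 0.19, adjusted p = 2.7e-05) and 6385 ± 1722 CPM (2.06 ± 0.19, adjusted p = 6.12e-06).

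The peptide transporter gene next to Psmb9, Tap1, was at 15.9 ± 10.6 CPM in corpus callosum, 17.8 ± 12.9 at demyelination and 57.2 ± 66.8 at remyelination, and did not pass (adjusted p = 0.973 and 0.579). Where 292 and 85 of all 14057 genes fell at demyelination and remyelination, 0 of 11 tested genes of interferon signalling rose and 1 fell at each stage. That gene was Ifngr1, a chain of the interferon gamma receptor, which went from 926 ± 99.7 CPM to 333 ± 80.8 (-1.48 ± 0.27, adjusted p = 0.00417) and 439.8 ± 157 (-1.07 ± 0.27, adjusted p = 0.0417). Against facial nucleus, edgeR called 0 genes of these 4 lists at day 3 or day 14 after axotomy (0.145% and 0.0% of all genes). At day 3 the unadjusted p was under 0.05 for 1 assembly factor and 2 class I genes (8.33% of all genes). DESeq2 called 1 assembly factor there (1.8% of all genes). At day 14 the unadjusted p was under 0.05 for 1 assembly factor, 2 class I genes and 1 interferon signalling gene (5.64% of all genes). DESeq2 called 0 there (0.937% of all genes).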

How the data were processed

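The deposited table holds read counts per gene for 1920 wells on 5 plates of 384, of which 1900 are labelled as microglia and 20 as negative. The authors aligned reads with STAR 2.5.2b and counted them with featureCounts 1.5.1 against GRCm38 (per the submitters' processing notes). Which annotation release, strand setting and sorting gates were used is not given in the sources used here. Each column of the table is 1 well and carries the title of its sample.

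Cells were kept with at least 20000 gene counts, 500 detected genes, under 25% mitochondrial counts and under 50% spike-in counts. Their counts were summed per mouse, which is the replicate. Gene names came from the reference annotation, where 48349 of 48709 identifiers were found. Sums were tested with edgeR 4.0.16 in R 4.3.3 (quasi-likelihood test, TMM scaling, filterByExpr at its minimum of 10 counts and 15 in total) in separate fits of the regions, the axotomy groups, the cuprizone groups and the 4 groups of the effect comparison. Fold changes are fitted log2 values, adjusted over all genes tested by the Benjamini-Hochberg method and called at 0.05. Shares of cells were computed after thinning to 20000 reads. The tests were run on simulated data first.

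The alternatives were DESeq2 1.42.0, RLE scaling, no filter on low counts, a replicate block, all 10 groups or only the compared groups in the fit, equal weight per cell (limma 3.58.1), a stricter cell filter (50000 counts and 1000 genes), leaving out cells with reads of monocyte or border macrophage markers, and leaving out each replicate. Library size alone was added after seeing the data. Named with values in every mouse were Psmb5 to Psmb10, Psme1, Psme2 and members past the threshold, and in each role the members with extreme values. Psmb4, Psma2, Psmc3ip, Psme3 and other members with an unadjusted p under 0.05 were chosen after their values were seen. The members and lists were chosen with earlier results of these data known.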

Additional observations from a re-analysis of the deposited data

Results flagged for a closer look

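In 110 checks of single members within a group of 4 mice, 5 had a mouse far from the other 3, and chance gives about 1 in 20. The values are CPM scaled over all 10 groups. Psma7 was at 218.7 CPM in hippocampus replicate 3, where the other mice ran from 86.9 to 99.32. It was at 92.6 CPM in cerebellum replicate 2, against 123.1 to 123.4 in the others. Psmb5 was at 3.741 CPM in cortex replicate 1, against 9.609 to 10.2. Psmb9 was at 10.21 CPM in hippocampus replicate 4, against 60.68 to 67.77. Psme1 was at 190.2 CPM in facial nucleus replicate 4, against 69.42 to 73.25. All 5 lie in untreated regions, and none is in the corpus callosum or cuprizone groups.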

How the results depend on the processing

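The count of members called at demyelination, 4 with TMM scaling, was 11 with DESeq2, 15 with all 10 groups in the fit, 13 with only the 2 groups compared, 2 without the filter on low counts, 2 with equal weight for each cell, 2 without cells with monocyte or border macrophage reads and 0 with library size alone. At remyelination the count of 3 was 7 with all 10 groups, 1 without the filter on low counts, and 0 with equal weight for each cell, with the stricter cell filter, with only the 2 groups compared and with library size alone. Of all genes at demyelination, DESeq2 called 13.8% and library size alone 775 of 14057 (299 at remyelination). The shares of all genes called under the other settings named here are not given. A higher count of members under them is therefore not a stronger result for members. DESeq2 called 1 member for any difference among regions, for cerebellum against facial nucleus, for axotomy day 3 and for the difference between effects, where edgeR called 0, and edgeR without the filter called 1 at axotomy day 3. Leaving out 1 replicate gave 0 to 5 members at demyelination and 0 to 4 at remyelination, and 0 in every other comparison. The causes were not tested. No value past the threshold changed direction under an alternative.

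With a replicate block the counts were 5 at demyelination and 3 at remyelination. The labels do not say that equal numbers are 1 animal, so the main fits did not pair samples. Same-numbered samples correlated at -0.02 to 0.05 in their deviations from the group means. Each of the 24 region sums correlated best with its own number, with a median of 0.019 against -0.0057 for other numbers. Equal numbers may therefore be 1 animal in the region groups, and the main region tests ignore such a pairing. With the block edgeR also called no member in the region comparisons. The SE printed with an edgeR fold change is the log2 fold change divided by the root of the test's F statistic. For Psmb5 at demyelination it was 1.12, beside a log2 fold change of 1.22 and mice that did not overlap. The reason for its size was not tested.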
